A study of Homo sapiens with 3 samples.

Results

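The TNF superfamily ligands and receptors were examined in PANC-1, a long-established line from a human pancreatic carcinoma, after exposure to cantharidin or okadaic acid. The members were the 39 genes of a fixed list, 17 ligands and 22 receptors, found among 19699 genes by matching the RefSeq accession of each array probe to a symbol. Cantharidin and okadaic acid are both inhibitors of protein phosphatase 2A (PP2A), which strips phosphate from many kinases and their substrates. The groups were control PANC-1 cells, cells given cantharidin and cells given okadaic acid. The sample labels give 20 µM for each agent and a treatment time of 24 h. The dose of okadaic acid rests on its sample label alone, since the wording of the series' design can also be read as giving that dose for cantharidin only, and it would be a high one for this agent. Whether the control cells received a vehicle is not stated in the sources used here. Each group had 1 array, 3 in all, so the differences below have no replicates behind them and no test between groups could be run. Both comparisons with control used the same control array.

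Most TNF superfamily ligands are trimers that sit in the membrane or are shed from it, and each binds 1 or several receptors on the same or another cell. Receptors with a death domain, such as TNFRSF1A, FAS and TNFRSF10B, can recruit FADD and caspase-8 and start apoptosis, whereas the receptors without one bind TRAF adaptor proteins and switch on NF-κB and JNK signalling. Decoy receptors bind a ligand without passing on its death signal. Many ligands of the family are best known from lymphocytes and myeloid cells, and tumour cells also express several of its members.

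Signals are processed spot intensities, each array's own brightness values after background subtraction. Differences are on the log2 scale and were taken once the 75th percentile of an array had been subtracted. That percentile was 784 in control, 713 in cantharidin and 936 in okadaic acid. A member with several probes was represented by its brightest, and it entered a comparison if the scanner software's flag put it well above background on 1 or both of the arrays. A member was called higher or lower at 1.5-fold. Where a probe was well above background on only 1 of the arrays compared, its fold is a bound, written as at least so many fold, against the higher of its own dim signal and the lowest signal well above background on that array. Intensities are not scaled between arrays, whereas differences and folds are. Intensities given 3 at a time are in the order control, cantharidin and okadaic acid, and pairs of differences or folds are for cantharidin and then okadaic acid. The error given with a difference is the spot error that the scanner software estimated for the spots behind it, on the log2 scale, and it does not cover variation between cultures. The spots of a probe on 1 array measure the same RNA, so their range does not cover it either. How often the spots of all probes with 10 spots separate between arrays was not counted. On bulk RNA, fewer cells holding a transcript and less of it per cell cannot be told apart.

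All 6 epithelial and PANC-1 marker genes (KRT7, KRT8, KRT18, KRT19, EPCAM and VIM) were well above background on each array. So were all 11 leukocyte markers, among them PTPRC, whose intensity was 372 in control, 263 in cantharidin and 405 in okadaic acid, and CD3E, at 259, 223 and 390. The summed leukocyte marker signal was 12588 in control, 11017 in cantharidin and 32523 in okadaic acid. Most of the excess in okadaic acid lay in CD14, at 2535, 1838 and 11044, and CD68, at 2945, 3895 and 12731. The other myeloid markers went both ways under okadaic acid after scaling. ITGAM had a log2 difference from control of -0.60 and CSF1R of 1.26, and that of PTPRC was -0.13. The part of these signals in the results for ligands known from leukocytes was not tested.

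Of the 39 members, 33 were well above background somewhere, and 30 were so on all 3 arrays. The remaining 6 never were. They were the ligands TNFSF4, TNFSF11, TNFSF14, TNFSF18 and FASLG and the receptor TNFRSF19, and no fold is given for them. Their intensities ran from 6.06 for TNFSF4 in cantharidin to 26.7 for TNFSF18 in okadaic acid. No transcript spot reached saturation. TNFSF18 and FASLG had 10 spots on each array, and none of the spots kept was well above background. The scanner floor, the lowest signal well above background, was 35.0 in control, 21.9 in cantharidin and 58.0 in okadaic acid.

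**Figure D1:**
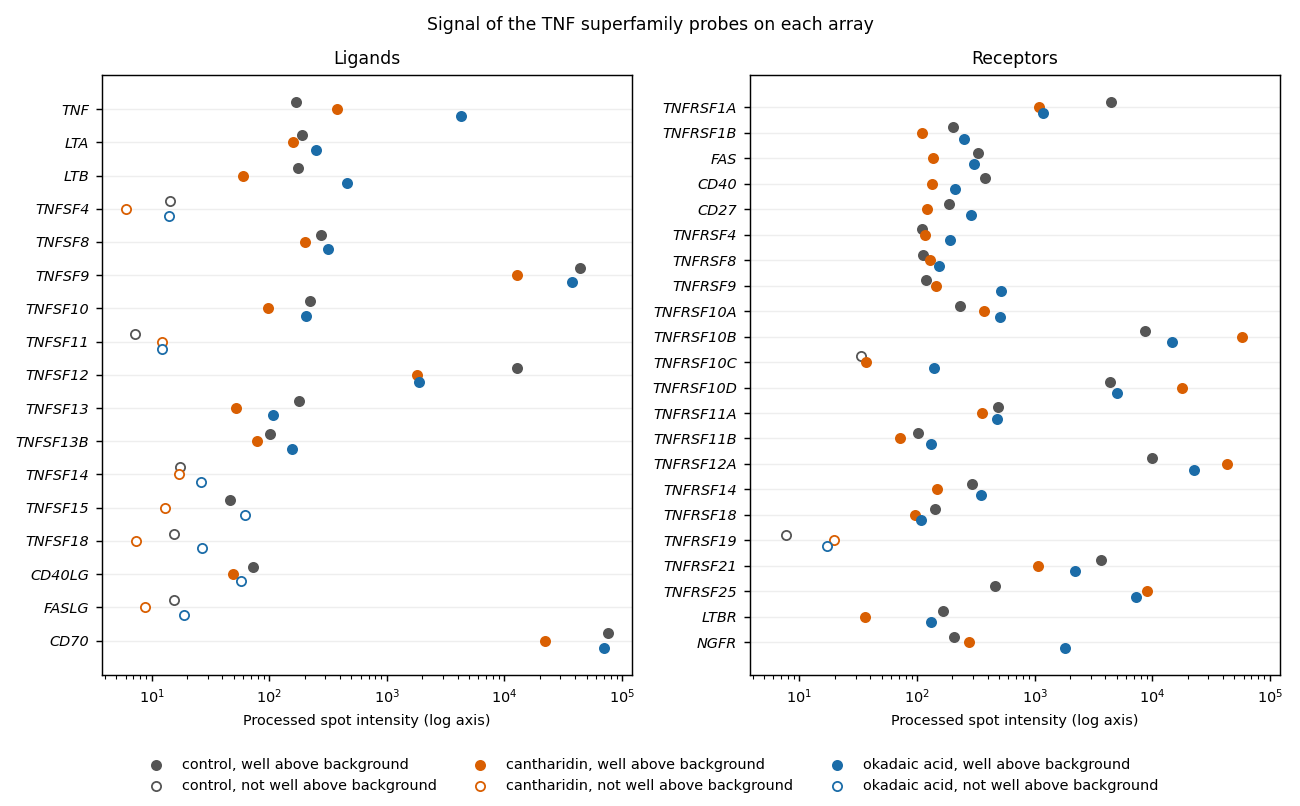
Processed spot intensity (log axis) of each TNF superfamily ligand (left) and receptor (right), 1 point per array and not scaled between arrays. Filled points were well above background and open points were not. The probes of different genes are not comparable in height, so each row is read across. TNF ran from 169 in control to 4295 in okadaic acid, and TNFSF12 from 12791 in control to 1817 in cantharidin.

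Under cantharidin, the ligands were mostly lower and the receptors went both ways. Of 33 members compared with control, 6 were at least 1.5-fold higher, or 18.2%, against 27.5% of all genes. Another 14 were at least 1.5-fold lower, or 42.4%, against 34.1% of all genes. Among the 12 ligands compared, TNF was the single one called higher and 7 were called lower. Of the 21 receptors, 5 were higher (23.8%) and 7 lower (33.3%), near the shares of all genes. The median log2 difference was -1.23 for the ligands and -0.32 for the receptors, beside -0.16 over all genes. Over the members together the median of -0.43 was -0.19 under each of 2 alternatives, normexp (a model-based background correction) and centring by brightness.

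Under okadaic acid, the members went both ways, in shares a little under those of all genes. Of 33 members, 8 were at least 1.5-fold higher, or 24.2%, against 28.1% of all genes. The same number, 8, were at least 1.5-fold lower, against 28.8% of all genes. Of the 12 ligands compared, 2 were higher (16.7%) and 3 lower (25.0%). Among the 21 receptors, 6 were higher (28.6%) and 5 lower (23.8%). The median over the members was 0.07 on the log2 scale, beside 0.01 over all genes. The balance depended on the scaling, with 12 higher and 5 lower without scaling and 10 higher and 5 lower when scaled to detected probes. Normexp gave 8 higher and 5 lower. The calls lost were those of CD40LG, TNFRSF18 and LTBR.

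Set directly against cantharidin, the signal in okadaic acid was higher by 1.5-fold or more for 15 of 32 members, or 46.9%, against 29.5% of all genes. It was lower by as much for 4 members, or 12.5%, against 22.3% of all genes. The 4 were all receptors, namely TNFRSF10B, TNFRSF10D, TNFRSF12A and TNFRSF25. None of the 11 ligands compared was lower by that much, and 6 were higher. The median over the members was 0.54, beside 0.13 over all genes, and it was 0.22 under normexp and 0.93 without scaling.

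**Figure D2:**
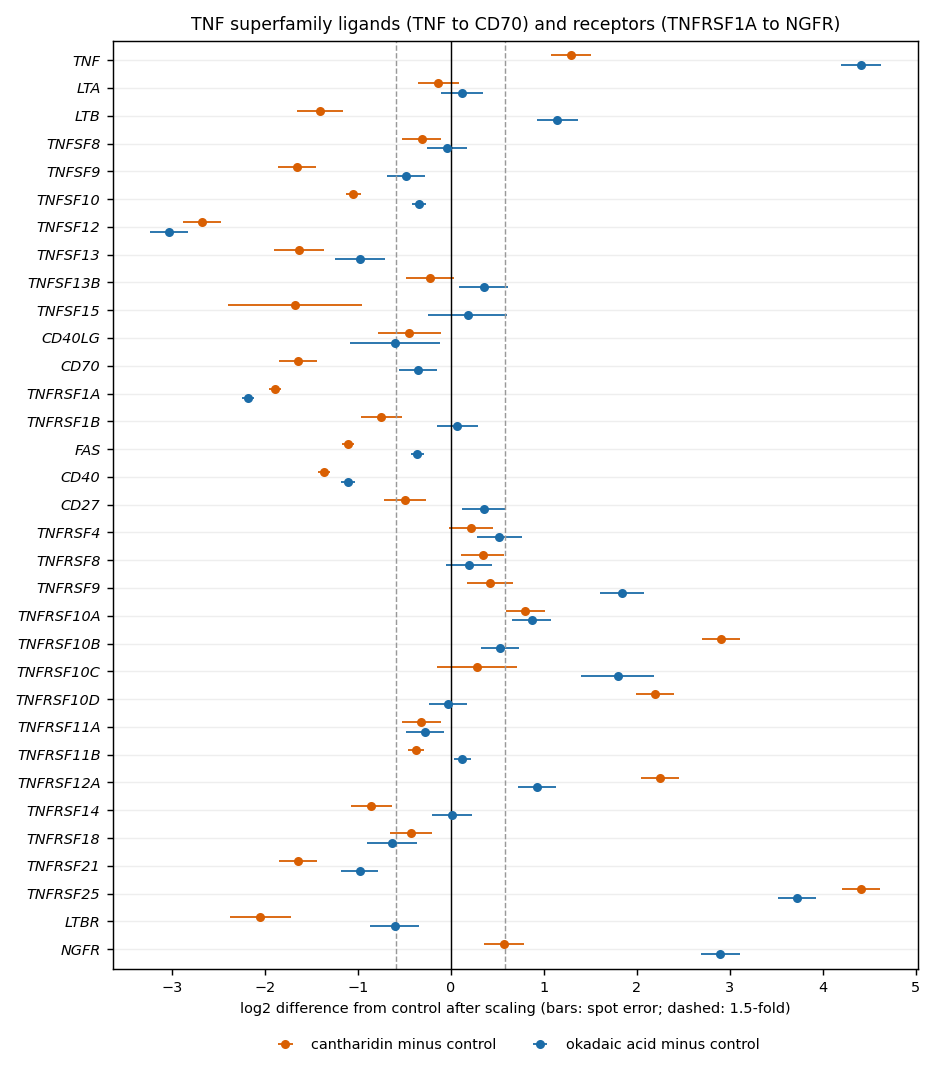
Log2 difference from control after scaling for the 33 TNF superfamily members that were compared, with cantharidin in orange and okadaic acid in blue. Bars show the spot error of the software and dashed lines mark 1.5-fold. The points of TNF, TNFRSF25 and NGFR lie far to the right under okadaic acid, TNFRSF10B and TNFRSF10D past 1.5-fold under cantharidin and not under okadaic acid, and TNFSF12 and TNFRSF1A to the left under both.

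There were 6 members at least 2-fold higher under okadaic acid than in control, namely TNF, LTB, TNFRSF9, TNFRSF10C, TNFRSF25 and NGFR. The table of promoter windows holds 4 of these, all but NGFR and TNFRSF10C, and they are shown as the promoters of members that were higher under okadaic acid. Each window runs from 250 bases before to 50 after the gene start in RefSeq, on GRCh38.p14. The windows are chr6:31575315-31575614 (plus strand) for TNF, chr6:31582375-31582674 (minus strand) for LTB, chr1:7940790-7941089 (minus strand) for TNFRSF9 and chr1:6466124-6466423 (minus strand) for TNFRSF25. Capitals mark exact matches, on either strand, to the NF-κB consensus GGGRNWYYCC or to the AP-1 motif TGANTCA. Here R is a purine, Y a pyrimidine, W is A or T and N is any base. No match of one motif overlaps a match of the other.
TNF: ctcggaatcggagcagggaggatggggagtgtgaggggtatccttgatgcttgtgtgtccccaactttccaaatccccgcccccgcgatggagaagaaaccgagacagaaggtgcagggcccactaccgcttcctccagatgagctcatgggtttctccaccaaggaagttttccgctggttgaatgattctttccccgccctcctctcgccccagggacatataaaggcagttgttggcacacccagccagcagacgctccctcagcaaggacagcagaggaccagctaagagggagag
LTB: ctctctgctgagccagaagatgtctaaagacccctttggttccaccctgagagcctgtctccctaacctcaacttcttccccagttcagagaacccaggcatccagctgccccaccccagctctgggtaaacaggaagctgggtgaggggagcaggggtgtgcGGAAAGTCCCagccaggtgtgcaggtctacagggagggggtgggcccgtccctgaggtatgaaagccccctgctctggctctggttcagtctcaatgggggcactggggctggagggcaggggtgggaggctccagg
TNFRSF9: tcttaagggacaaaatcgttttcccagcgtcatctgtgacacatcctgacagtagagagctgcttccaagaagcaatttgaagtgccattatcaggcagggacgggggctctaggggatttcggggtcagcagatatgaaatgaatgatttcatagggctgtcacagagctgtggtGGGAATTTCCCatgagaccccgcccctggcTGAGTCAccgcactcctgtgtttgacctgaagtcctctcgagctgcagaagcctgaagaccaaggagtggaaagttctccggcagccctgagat
TNFRSF25: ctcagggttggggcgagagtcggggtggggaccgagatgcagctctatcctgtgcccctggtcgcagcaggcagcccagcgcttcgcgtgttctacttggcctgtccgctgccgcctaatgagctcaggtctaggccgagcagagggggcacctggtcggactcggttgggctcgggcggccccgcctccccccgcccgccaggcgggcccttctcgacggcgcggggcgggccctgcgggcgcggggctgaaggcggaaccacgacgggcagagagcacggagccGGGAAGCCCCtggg
LTB had 2 windows, of which the first by position is shown. That window held an NF-κB match at positions -87 to -78 from its gene start. TNFRSF9 had overlapping NF-κB matches on the 2 strands, from -74 to -64, and an AP-1 match at -44 to -38. In TNFRSF25 the NF-κB match lay after the start, at positions 37 to 46. Neither pattern had an exact match in the TNF window, and looser forms of the motifs were not searched. Of the 39 members, 26 had a window in the table, 35 windows in all. An NF-κB match was present in 10 of the 35 (28.6%), against 5.91% of all 35116 windows, and an AP-1 match in 7 (20.0%), against 7.71%. TNFRSF14, FAS and TNFSF13 also held an NF-κB match and were 1.81-fold, 2.16-fold and 3.10-fold lower under cantharidin. TNFSF13 was lower under okadaic acid too. So did LTA hold one, called under neither agent, and TNFSF14, not well above background on any array. Besides TNFRSF9, AP-1 matches lay in windows of CD27, FAS, TNFRSF8, TNFSF14 and TNFSF15, and none of those was called higher against control. A match describes the letters of the window and is not a measured binding site.

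TNF, the founding cytokine of the family and an activator of NF-κB and death signalling, was the ligand with the largest difference under okadaic acid. Its intensity was 169 in control, 377 in cantharidin and 4295 in okadaic acid. Control was lowest and okadaic acid stood far above the other arrays. The log2 difference from control was 1.30 ± 0.22 (spot error) for cantharidin and 4.41 ± 0.22 for okadaic acid, or 21.3-fold, and okadaic acid was 8.68-fold above cantharidin. The lowest log2 difference of TNF in any of 12 alternatives was 1.09 for cantharidin and 3.92 for okadaic acid.

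TNFRSF1A, the widely expressed death domain receptor of TNF, was lower under both agents, where its ligand was higher. It was measured with 10 spots on each array. The spots ran from 4093 to 4732 in control (median 4531), from 1010 to 1481 in cantharidin (median 1059) and from 1101 to 1259 in okadaic acid (median 1169). The treated spots all lay below the control spots. TNFRSF1A was 3.70-fold lower with cantharidin than in control and 4.55-fold lower with okadaic acid. The SD between spots was 0.06, 0.16 and 0.07 on the log2 scale in control, cantharidin and okadaic acid.

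TNFRSF1B, the TNF receptor without a death domain, gave an intensity of 202 in control, 109 in cantharidin and 253 in okadaic acid. It was low in cantharidin, 1.68-fold under control, and its difference under okadaic acid was 0.07 ± 0.22. A second probe gave -1.10 and -0.22 for the 2 agents. The cantharidin call on TNFRSF1B was lost under normexp, where the difference was -0.54. LTA, a secreted ligand of the same receptors, gave intensities of 191, 158 and 249, and both of its differences were within their spot error of 0.

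LTB, which joins LTA in the membrane-bound lymphotoxin that binds LTBR, was called in opposite directions. Its intensity was 175 in control, 59.8 in cantharidin and 463 in okadaic acid. Cantharidin was lowest and okadaic acid highest, with a log2 difference from control of -1.41 ± 0.25 and 1.15 ± 0.22. Between the treated arrays the difference was 2.56, or 5.89-fold, and 1.65 with normexp. LTBR, the receptor that drives the non-canonical NF-κB pathway, was low in both treatments, with intensities of 166, 36.4 and 130. It was 4.15-fold lower under cantharidin, a log2 difference of -2.05 that was -1.05 with normexp. Under okadaic acid LTBR was 1.52-fold lower, a call that was lost in 4 of 12 alternatives. TNFRSF14, a receptor for the ligand TNFSF14 and for LTA, stood at 293, 147 and 353. It was 1.81-fold lower with cantharidin, and its okadaic acid difference was 0.01 ± 0.21.

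The TRAIL axis was unequal between the agents. TNFSF10 (TRAIL), a ligand that can trigger apoptosis in tumour cells, was measured with spots from 205 to 237 in control, 70.8 to 123 in cantharidin and 172 to 244 in okadaic acid. The cantharidin spots did not overlap with those of either other array, before or after scaling. TNFSF10 was lower than control by 2.07-fold with cantharidin and by 1.27-fold with okadaic acid. A second TNFSF10 probe, at 204 in control, was not well above background in treated cells and was at least 8.46-fold lower with cantharidin than in control and at least 4.19-fold lower with okadaic acid. The median over the 2 probes gave log2 differences of -2.42 and -1.29 in place of -1.05 and -0.35.

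TNFRSF10B (DR5), a death receptor of TRAIL, stood out under cantharidin. Its intensity was 8612 in control, 58610 in cantharidin and 14826 in okadaic acid. Cantharidin was well above both other arrays, with a difference of 2.90 ± 0.20, or 7.49-fold. Under okadaic acid TNFRSF10B was 1.44-fold higher, which fell short of 1.5-fold but passed it in 3 of 12 alternatives. TNFRSF10D, a decoy receptor with a truncated death domain, was likewise highest in cantharidin, at 4340, 18089 and 5073. It was 4.59-fold higher under cantharidin and differed from control by -0.03 ± 0.20 under okadaic acid. Okadaic acid was 5.19-fold below cantharidin for TNFRSF10B and 4.68-fold below it for TNFRSF10D.

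For the other TRAIL receptors, cantharidin did not stand 1.5-fold above okadaic acid. TNFRSF10A (DR4), the second death receptor, gave 232, 368 and 506, and was higher than control by 1.74-fold with cantharidin and by 1.83-fold with okadaic acid. After scaling, the treated arrays were close for TNFRSF10A, with okadaic acid above cantharidin by 0.07 ± 0.21. That difference ran from -0.10 to 0.46 over 12 alternatives. The cantharidin call on TNFRSF10A was lost under normexp. TNFRSF10C, a decoy receptor with no death domain, was not well above background in control at 33.6. It measured 37.0 in cantharidin and 139 in okadaic acid, at least 1.16-fold and at least 3.32-fold above control. TNFRSF10C was thus highest in okadaic acid, where it was 2.86-fold above cantharidin. With normexp its log2 differences were smaller, 0.74 in place of 1.79 against control and 0.66 in place of 1.51 against cantharidin. These 4 receptors are close paralogs, and whether their probes tell them apart was not tested. TNFRSF11B (osteoprotegerin), a secreted decoy that binds TRAIL as well as TNFSF11, had median spots of 100.0, 69.5 and 134, and its differences of -0.38 and 0.12 were under 1.5-fold.

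FAS, the death receptor of FASLG, was lower under cantharidin on each of its 3 probes. On the probe with 10 spots, the spots ran from 291 to 356 in control, from 124 to 156 in cantharidin and from 273 to 336 in okadaic acid. Divided by each array's 75th percentile, the spots of the 3 arrays did not overlap. They ran from 0.371 to 0.454 in control, 0.174 to 0.219 in cantharidin and 0.292 to 0.359 in okadaic acid. Before that scaling, the control and okadaic acid spots overlapped. FAS was 2.16-fold lower with cantharidin than in control and 1.29-fold lower with okadaic acid. A second probe gave 2.48-fold and 1.42-fold lower. The third, not well above background in treated cells, gave at least 3.36-fold and at least 1.59-fold lower.

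**Figure D3:**
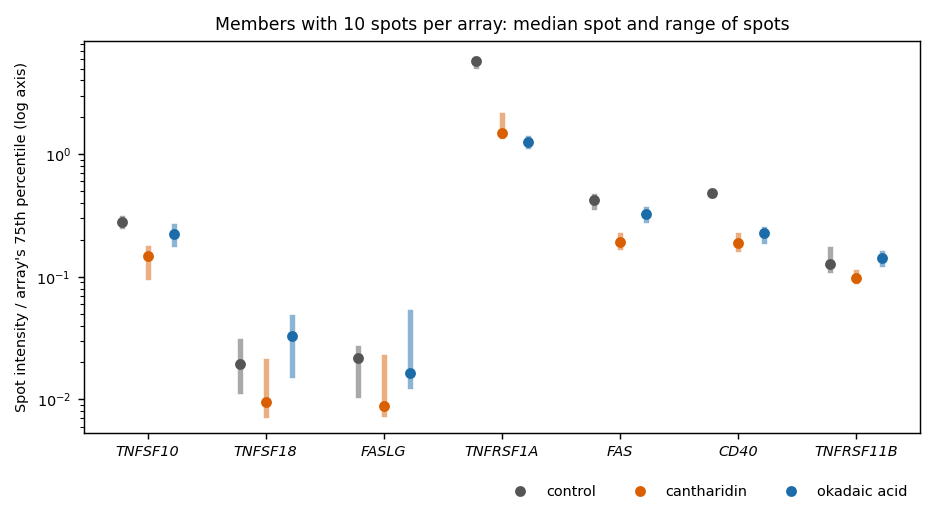
Spot intensity divided by the array's 75th percentile (log axis) of the 7 members measured with 10 spots per array, of which 8 to 10 were kept after outlier flags. Points are the median spot and bars run from the lowest to the highest spot, for control (grey), cantharidin (orange) and okadaic acid (blue). The spots of TNFRSF1A, FAS, CD40, TNFSF10 and TNFRSF11B separate cantharidin from control, although TNFRSF11B was under 1.5-fold. How often the spots of other probes with 10 spots separate was not counted. None of the spots of TNFSF18 and FASLG was well above background.

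CD40, a receptor of antigen-presenting cells that carcinoma cells can also express, was lower under both agents on its probe with 10 spots. Its spots ran from 366 to 396 in control, from 121 to 157 in cantharidin and from 185 to 230 in okadaic acid. Divided by each array's 75th percentile, control spots (0.467 to 0.504) lay above all treated spots, while the spots of cantharidin (median 0.189) and okadaic acid (median 0.228) overlapped. On that probe CD40 was lower than control by 2.57-fold with cantharidin and by 2.16-fold with okadaic acid. A second CD40 probe was dim at 59.1, 13.3 and 56.2 and was well above background in control alone. It was at least 2.45-fold lower with cantharidin, but its bound with okadaic acid, at least 1.21-fold lower, was under 1.5-fold. CD40LG, the ligand of CD40, lay near the floor at 73.3, 48.8 and 57.7, and was not well above background in okadaic acid. The bound there was at least 1.51-fold lower, a call kept in 7 of 11 alternatives.

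TNFSF12 (TWEAK) and its receptor TNFRSF12A (Fn14) differed from control in opposite directions under both agents. TNFSF12 gave intensities of 12791, 1817 and 1862, so the treated arrays stood close together and far below control. Its log2 difference was -2.68 ± 0.20 for cantharidin and -3.04 ± 0.20 for okadaic acid. On a second probe TNFSF12 was at least 7.89-fold lower with cantharidin and at least 4.66-fold lower with okadaic acid. TNFRSF12A, a small receptor induced by growth factors and injury, gave 10045, 43277 and 22856. Cantharidin was highest and control lowest, at 4.74-fold and 1.91-fold above control for cantharidin and okadaic acid.

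TNFSF13 (APRIL), a B cell survival factor and neighbour of TNFSF12, was low in both treatments at 178, 52.0 and 108. It was 3.10-fold lower with cantharidin than in control and 1.97-fold lower with okadaic acid. With normexp the cantharidin difference of TNFSF13 was -0.86 in place of -1.63. A read-through transcript joins TNFSF12 and TNFSF13, and whether the probes bind it was not tested. TNFSF13B (BAFF), the related survival factor, gave 102, 79.4 and 155, and its differences of -0.22 ± 0.26 and 0.35 ± 0.27 were under 1.5-fold.

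CD70 and TNFSF9 are costimulatory ligands of activated lymphocytes. CD70, the ligand of the lymphocyte receptor CD27, gave intensities of 76060, 22144 and 71085. TNFSF9, the ligand of TNFRSF9, gave 44386, 12817 and 37829. For both, cantharidin was low, and okadaic acid lay nearer to control. CD70 was 3.12-fold and TNFSF9 3.15-fold lower under cantharidin, while the differences under okadaic acid were -0.35 ± 0.20 and -0.49 ± 0.20. Okadaic acid stood above cantharidin by 2.44-fold for CD70 and 2.25-fold for TNFSF9.

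The receptors of these ligands followed another order. TNFRSF9, a costimulatory receptor of activated T cells, stood at 120 in control, 146 in cantharidin and 514 in okadaic acid. Okadaic acid was alone in being high, at 3.58-fold above control and 2.67-fold above cantharidin. CD27 gave 188, 121 and 287, with differences of -0.49 ± 0.23 and 0.35 ± 0.23 that were under 1.5-fold. Okadaic acid was 1.80-fold above cantharidin for CD27, a call lost with normexp. For TNFRSF9, normexp gave a log2 difference from control of 1.05 under okadaic acid in place of 1.84.

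The remaining costimulatory members differed little. TNFSF8, the ligand of TNFRSF8 (CD30), gave 274, 200 and 317, and TNFRSF8 itself gave 113, 130 and 154. Neither was called against control. TNFRSF4 (OX40) had intensities of 111, 118 and 191, and its difference of 0.52 ± 0.24 under okadaic acid was under 1.5-fold. TNFRSF18 (GITR), another T cell receptor, stood at 142, 95.5 and 109. It was 1.55-fold lower under okadaic acid, and 9 of 12 alternatives kept that call.

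TNFRSF25 (DR3), a death domain receptor known from lymphocytes, had on its brighter probe the largest difference of all members under cantharidin. There its intensity was 463 in control, 8965 in cantharidin and 7288 in okadaic acid. Both treated arrays stood far above control, by 21.3-fold and 13.2-fold. A second TNFRSF25 probe, matched to another transcript, was dim at 52.9, 32.0 and 65.3 and was well above background in control alone. Its bound under cantharidin lay at the 1.5-fold threshold, on the lower side. The probes of TNFRSF25 thus disagreed, and the median over them gave log2 differences of 1.91 and 1.89 in place of 4.41 and 3.72. TNFSF15, its ligand, was well above background in control alone at 45.9, close to the floor. It was at least 1.91-fold lower under cantharidin, a call lost with normexp, and no fold is given for okadaic acid.

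Among the receptors of the nervous system and development, NGFR, the low-affinity neurotrophin receptor, gave 206, 278 and 1829. Okadaic acid was high and the other arrays were close to each other. NGFR was 7.45-fold above control under okadaic acid and 5.02-fold above cantharidin. Its difference under cantharidin, 0.57 ± 0.21, lay at the threshold, and 6 of 12 alternatives placed it past 1.5-fold. TNFRSF21 (DR6), a death domain receptor, gave 3663, 1068 and 2212. Control was highest, and TNFRSF21 was lower than control by 3.12-fold with cantharidin and by 1.98-fold with okadaic acid. TNFRSF11A (RANK), the receptor of TNFSF11 in bone and mammary tissue, gave 485, 354 and 478, with differences of -0.32 ± 0.21 and -0.28 ± 0.21.

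Listed genes that carry the signal inside the cell were higher more often than the ligands and receptors. Their list was chosen with earlier results of these data known, so its shares describe the list and do not test the pathway. A list of 37 genes of TNF receptor signalling held adaptors, ubiquitin ligases and deubiquitinases, kinases and apoptosis regulators, of which 36 were compared. Under cantharidin, 25 of 36 (69.4%) were at least 1.5-fold higher and 4 were lower, against 27.5% and 34.1% of all genes. Under okadaic acid, 22 (61.1%) were higher and 4 lower, against 28.1% and 28.8%. Their median difference, on the log2 scale, was 0.94 for cantharidin and 0.79 for okadaic acid. RIPK3, the kinase of necroptosis, was well above background on none of the 3 arrays.

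**Figure D4:**
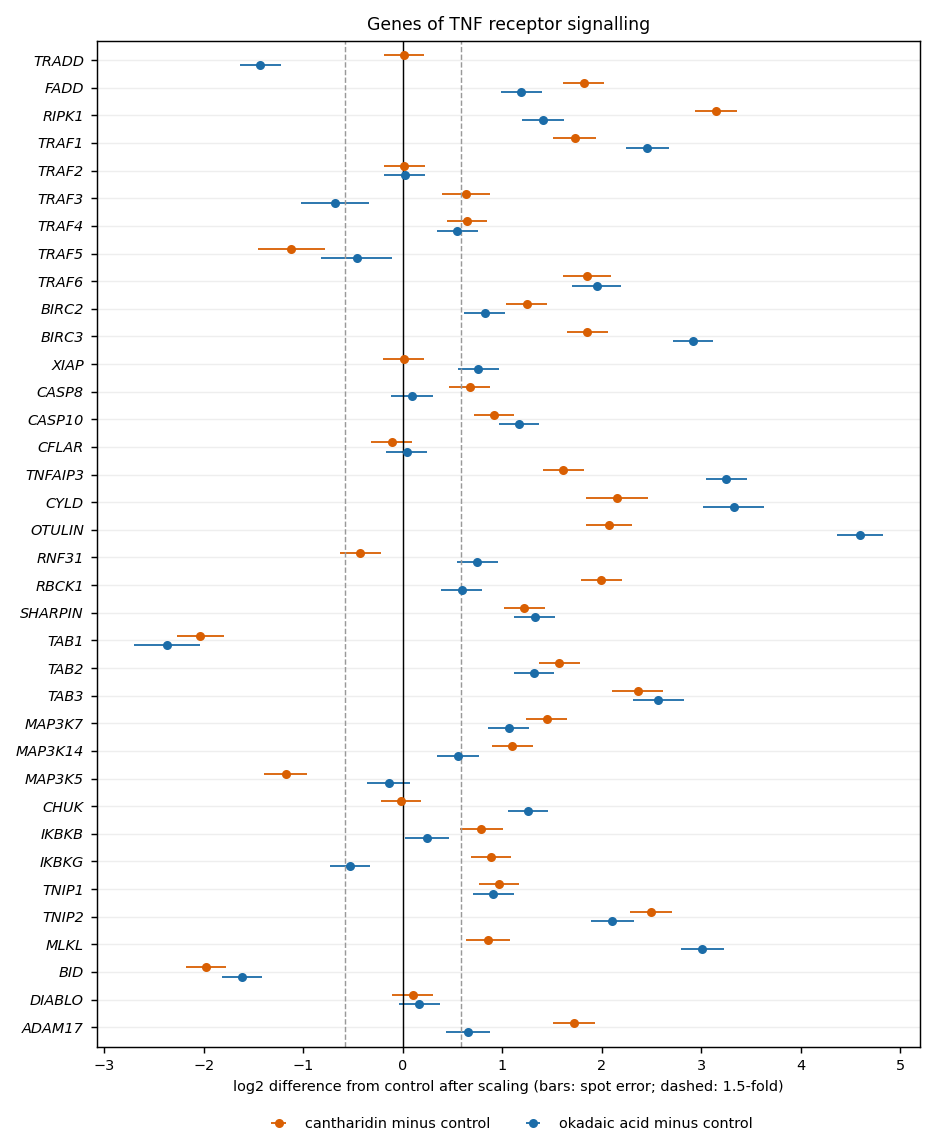
Log2 difference from control after scaling for the 36 genes of TNF receptor signalling that were compared, with cantharidin in orange and okadaic acid in blue. Bars show the spot error and dashed lines mark 1.5-fold. Most points lie to the right of 0, with OTULIN at 4.60 under okadaic acid and RIPK1 at 3.15 under cantharidin, while TAB1 and BID lie to the left under both.

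The genes named for the size of their differences included some negative regulators of the pathway. TNFAIP3 (A20), which edits ubiquitin chains and dampens NF-κB, gave intensities of 804, 2235 and 9140. CYLD, a deubiquitinase, gave 47.6, 192 and 570, and OTULIN, which cleaves linear ubiquitin chains, 105, 398 and 3015. For all 3, control was lowest and okadaic acid highest. They were 3.06-fold, 4.44-fold and 4.19-fold higher with cantharidin, and 9.52-fold, 10.0-fold and 24.2-fold higher with okadaic acid. With normexp the log2 difference of CYLD was 1.25 in place of 2.15 for cantharidin and 2.14 in place of 3.33 for okadaic acid, where OTULIN was at 3.74 in place of 4.60. The control signal of CYLD, 47.6, lay near the scanner floor of 35.0. TNIP2, a partner of TNFAIP3, was 5.62-fold and 4.31-fold higher.

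Adaptors and kinases near the receptor differed among themselves. TRADD, the adaptor of TNFRSF1A, was 0.01 under cantharidin and -1.43 under okadaic acid on the log2 scale, and TRAF2 was 0.01 and 0.02. TRAF5 was at -1.12 and -0.47, TRAF3 at 0.63 and -0.68, and the kinase MAP3K5 at -1.18 and -0.14. These 5 genes were named after their values were seen. BIRC3, a ubiquitin ligase that protects from TNF-induced death, gave 1348, 4428 and 12147, or 3.61-fold and 7.55-fold above control. TRAF1 was 3.31-fold and 5.49-fold higher, and TRAF6 3.61-fold and 3.86-fold higher. Under okadaic acid normexp gave log2 differences of 1.85 for TRAF1 in place of 2.46, and of 1.25 for TRAF6 in place of 1.95. RIPK1, the kinase that TNFRSF1A recruits, gave 238, 1913 and 754. It was 8.85-fold higher with cantharidin than in control and 2.65-fold higher with okadaic acid, so that here cantharidin was the higher of the treated arrays.

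The kinase TAK1 (MAP3K7) acts with TAB proteins, of which TAB2 and TAB3 were higher under both agents and TAB1 lower. On the log2 scale TAB2 was at 1.57 and 1.32, with 0.44 and 0.88 on a second probe. MAP3K7 was at 1.45 and 1.06. TAB2 and MAP3K7 were named after their values were seen. TAB3 gave 71.0, 331 and 502, at 5.14-fold and 5.93-fold above control. TAB1 was low in both treatments, with 292, 64.8 and 67.4, or 4.10-fold and 5.17-fold below control. With normexp the log2 differences were about 1.5 and 1.64 for TAB3 in place of 2.36 and 2.57, and -1.28 and -1.48 for TAB1 in place of -2.03 and -2.37. BID, which links death receptors to mitochondria, was lower than control by 3.94-fold with cantharidin and by 3.07-fold with okadaic acid, and its second probe gave 3.98-fold and 3.37-fold.

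**Figure D5:**
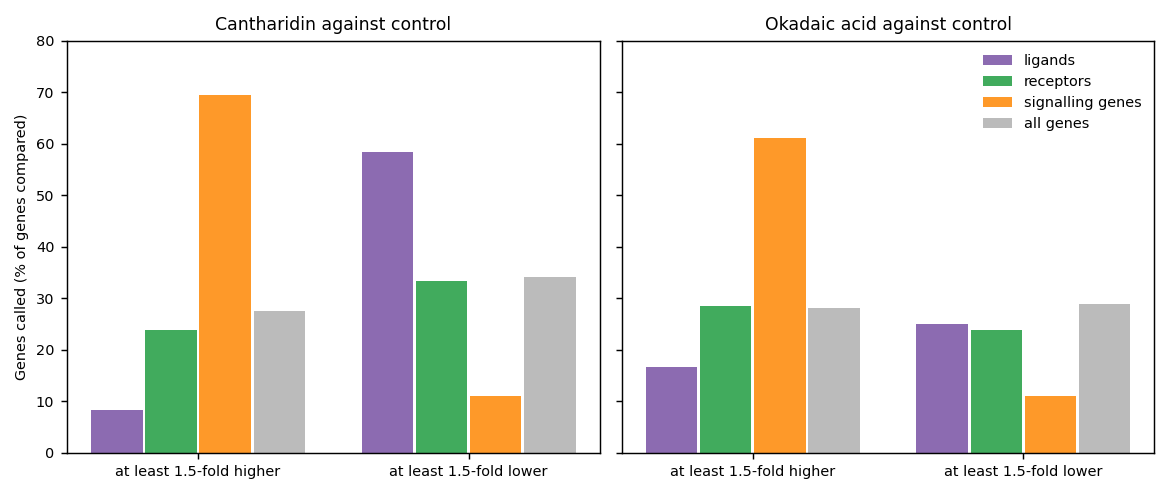
Share of the genes compared that were called at 1.5-fold (% on the vertical axis, from 0) for the 12 ligands, 21 receptors and 36 signalling genes, beside all genes, under cantharidin (left) and okadaic acid (right). Lower ligands reached 58.3% under cantharidin, against 34.1% of all genes. Higher signalling genes reached 69.4% and 61.1%, while higher receptors were at 23.8% and 28.6%, against 27.5% and 28.1% of all genes. The lists were chosen with earlier results of these data known.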

How the data were processed

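RNA of the 3 groups of PANC-1 cells had been hybridised to Agilent 1-colour arrays of 1 design, 1 per group as the titles state. Spot intensity was deposited as read by Feature Extraction 11.0.1.1, with background subtracted and no scaling between arrays per the file headers, together with 0 or 1 flags and a spot error. A second deposited table holds log2 values normalized by the authors. How they were normalized is not given in the sources used here, and the table served as an alternative. All arrays lay on 1 slide with 1 scan, each at its own position, so position and group cannot be told apart.

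Log2 intensity was averaged over the spots of a probe without outlier flags, which left 34041 probes, and the 75th percentile of each array was subtracted. Names came from RefSeq (GRCh38.p14) through accessions without version, for 25705 probes. That build differs from the hg19 annotation of the arrays, so only names and promoter windows were taken from it. Where a probe was dim on 1 array, its fold is a bound against the higher of its own signal and the scanner floor. The 1.5-fold threshold is that of the study. The spot error of a probe with several spots was divided by the square root of their number.

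The members and gene lists were chosen with earlier results of these data known. The text accounts for every member, and names signalling genes past 1.5-fold under both agents, at most 12 by the smaller difference. The calling step was run on simulated arrays with large planted changes and less noise than dim probes show here. That check does not bear on dim probes or on differences near 1.5-fold. Alternatives were normexp with an offset of 50 on the median spot signal, other scalings, filters, thresholds and probe summaries, and centring by position or brightness. The last was chosen after the data were seen. Analyses used Python 3.11.15, numpy 2.4.6, pandas 2.3.3, matplotlib 3.10.9, R 4.3.3 and limma 3.58.1. The number of arrays limits the precision.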

Additional observations from a re-analysis of the deposited data

Results flagged for a closer look

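LTB was called in opposite directions by the agents, with a log2 difference from control of -1.41 under cantharidin and 1.15 under okadaic acid, each from a single spot per array. Its difference kept its side of 1.5-fold in all 12 alternatives, between -1.64 and -0.84 for cantharidin and between 0.81 and 1.40 for okadaic acid. TRAF3, an adaptor that restrains non-canonical NF-κB signalling, was named here after its values were seen. It went the other way, at 0.63 for cantharidin and -0.68 for okadaic acid. The control intensity of TRAF3 was 109, against 154 with cantharidin and 81.3 with okadaic acid. Both TRAF3 calls were lost with normexp and without scaling. With 1 array per group, the difference between the agents was not tested for either gene.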

How the results depend on the processing

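No paired analysis was possible because each group had 1 array, and no array could be left out. Of the member calls, 17 of 20 under cantharidin, 13 of 16 under okadaic acid and 12 of 19 between the agents kept their side of 1.5-fold in every alternative that gave a value. No called difference of a member or of a gene named by the rule changed sign. Apart from TRAF3, the genes named after their values were seen were not checked for this. The median spot SD of probes under an intensity of 100 was 0.28 to 0.30 on the log2 scale, against 0.05 to 0.07 over 1000, which limits what dim probes can show. The calls lost also included TNFRSF21 and TNFRSF25, measured above 1000 on both treated arrays, in the direct comparison.

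The list results that moved are given by setting, and the cause was not tested. For the members, normexp gave medians of -0.19 (cantharidin against control) and 0.22 (okadaic acid against cantharidin) and 5 lower under okadaic acid. That count was also 5 with scaling to detected probes and without scaling, and 3 at 2-fold, where 8 members were higher than under cantharidin. Without scaling, the member medians were 0.32 (okadaic acid against control) and 0.93 (against cantharidin), and those of the signalling genes 1.05 and 0.43. The median over all genes itself was 0.26 and 0.52 without scaling, in place of 0.01 and 0.13, and -0.30 in place of -0.16 for cantharidin. With median scaling it was -0.11 for okadaic acid against control. Centring by brightness gave member medians of -0.19 (cantharidin) and 0.23 (between agents), and centring by position gave 12 signalling genes lower in the direct comparison.

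For the other superfamily genes, those lower under cantharidin numbered 0 with normexp, 1 at 2-fold and 4 with the median over probes, and those lower under okadaic acid 1 with normexp, without scaling and at 2-fold. In the direct comparison 2 were lower with median scaling and with centring by position, and 1 with quantile normalization, the deposited table and centring by brightness, and 3 were higher without scaling and with no filter. Their medians under cantharidin were -0.34 (normexp), -0.83 (median over probes) and -0.36 (centring by position). Under okadaic acid they were 0.064 (no scaling), 0.027 (no filter) and -0.58 (median over probes). Between the agents they were 0.055 (normexp), 0.16 (quantile), 0.78 (no scaling) and 0.085 (centring by brightness).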

Other observations

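Other genes of the superfamily lay outside the members. RELT, a receptor of lymphoid tissues that signals without a known ligand of the family, gave intensities of 3261 in control, 22139 in cantharidin and 21102 in okadaic acid. Both treated arrays were high and RELT was 7.47-fold and 5.42-fold above control. EDA2R, the receptor of an ectodysplasin form, gave 868, 474 and 425, at 1.66-fold and 2.43-fold below control. TNFRSF13C, the BAFF receptor, gave 141, 59.5 and 106, at 2.15-fold and 1.58-fold below control. With normexp, 0 genes of the list were lower under cantharidin and 1 under okadaic acid. EDA2R and TNFRSF13C were named after their values were seen. Of the 8 genes in this list, 5 were compared, and EDAR, TNFRSF13B and TNFRSF17 were not well above background on any array. EDA and the decoy receptor TNFRSF6B were under 1.5-fold against control on the probes used.

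Among genes outside the naming rule for signalling, MLKL, the effector of necroptosis, gave 131, 214 and 1256, or 1.81-fold and 8.06-fold above control, and was named after its values were seen.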
